A study of Homo sapiens with 15 samples.

Results

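MLPH-CKO and MAGI2-CKO are CRISPR knockout clones of HEK293T, a human embryonic kidney cell line that carries SV40 large T antigen. Their transcriptomes were compared directly with each other, without the control clone on either side of the contrast. The members of this comparison were the 3 MLPH-CKO and the 3 MAGI2-CKO libraries, 6 of the 15 in the series. Of 58735 genes in the files, the 16175 with at least 0.5 FPKM (fragments per kilobase of exon, scaled to the depth of the library) in at least 3 of the 15 libraries were tested.

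The series came from an indirect CRISPR screen, in which mutated HEK293T cells were searched for cells that help neighbouring U937 leukemia cells survive cytarabine, a nucleoside analogue. All groups were HEK293T cells cultured in DMEM with no drug named in their labels. Each carried lentiCRISPRv2, a lentivirus that delivers Cas9 and a guide RNA, and each was cloned by limiting dilution. MLPH-CKO had a guide against MLPH, MAGI2-CKO against MAGI2, C9orf89-CKO against C9orf89 (now CARD19) and RHBDD2-CKO against RHBDD2. The Non-target clone had a guide with no target and is labelled WT. RNA of every group came from 3 wells of 1 clone, so the p-values below measure the spread between wells, and what the guide did and what already set a clone apart cannot be told apart.

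MLPH encodes melanophilin, an adaptor that ties vesicles coated with the small GTPase RAB27A to the actin motor myosin Va and is best known for moving melanosomes in pigment cells. MAGI2 encodes a membrane-associated scaffold with WW and PDZ domains that gathers receptors and junction proteins at cell contacts, and it is needed in the podocytes of the kidney filter. Neither protein is known as a regulator of transcription, and both were knocked out as candidate genes of the same screen. The comparison therefore asks how far apart a pair of clones with the same role in the screen lie.

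The sites that were cut define the clones, so the designed guides are shown, 5′ to 3′ in lower case. The base triplet in capitals is the PAM next to which Cas9 cuts.
MLPH guide: gtcttacctccgggtccgccTGG
MAGI2 guide: tgacaacctctacctccgcaCGG
The MAGI2 guide matched whole, on the minus strand, chr7:79007099-79007118 of GRCh38. This lies in exon 2 of 6 MAGI2 transcripts of GENCODE v29, inside the coding sequence of 4 of them, and the other 2 have no annotated coding sequence. The MLPH guide crosses the end of an exon. The 13 bases inside the exon lie at chr2:237540521-237540533 on the minus strand, in exon 10 of the transcript ENST00000264605.7, and the other 7 were not matched here. The site is in 12 MLPH transcripts, of which 8 have it in the coding sequence and 4 have no annotated coding sequence. With up to 3 mismatches and an NGG PAM, the MAGI2 guide had a match in the transcripts of 1 other gene, CLPTM1L, at T11C, T15C and C17T counted from 1 at the 5′ end of the guide. CLPTM1L had a mean of 21.4 FPKM in MLPH-CKO and 20.3 in MAGI2-CKO (log2 fold change 0.08, adjusted p = 0.72 by limma). The MLPH guide had none, but this search did not find its own site in MLPH either, as that site crosses an exon end. It therefore cannot speak for sites of that kind. Sequence outside transcripts was not searched.

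The 3 MLPH-CKO libraries held 18602470, 18488218 and 17666063 fragments, and the 3 MAGI2-CKO libraries held 19489918, 18973593 and 19423812. The other 9 libraries ranged from 15517856 to 18008448. Replicate 1 stood apart from replicates 2 and 3 in both clones. The chi-square per gene was 24.17 and 24.85 between MLPH-CKO replicate 1 and the others against 6.54 between replicates 2 and 3, and 15.64 and 18.02 against 3.178 in MAGI2-CKO. The same held in the other 3 groups. Counts over all genes, of genes that set a clone apart and of whole gene lists are therefore also given without replicate 1 of every group where they moved by more than 1.5 times. Counts for parts of a list, single HOX clusters, gene types, chromosomes, stretches and the lists under other observations come from the main fit only. How far these depend on replicate 1 was not tested.

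The clones differed in 3428 genes, 21.2% of those tested (limma on log2(FPKM + 0.1) over all 15 libraries, Benjamini-Hochberg adjusted p below 0.05). MLPH-CKO was higher in 1907 (11.8%) and lower in 1521 (9.4%). A difference of 2-fold or more was found in 550 of them (3.4%), of which 349 (2.16%) were higher and 201 (1.24%) lower. The 2-fold genes numbered 144 with a pseudocount of 1 and 286 among genes that averaged 1 FPKM or more. The libraries of the clones did not overlap in 5893 genes (36.4%), and 3389 (21%) were both past the threshold and not overlapping. Without replicate 1 of every group 4179 genes passed, and 2849 of the 3428 (83.1%) were among them. The median log2 fold change over all tested genes was −0.01, with quartiles of −0.23 and 0.20, and the median standard error was 0.13. Among protein-coding genes 25.2% of 12375 passed, 1778 higher and 1342 lower, and among the other 3800 genes 8.11% did, 129 higher and 179 lower. In RNA from whole wells, fewer cells with a transcript and less transcript per cell cannot be told apart.

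**Figure D1:**
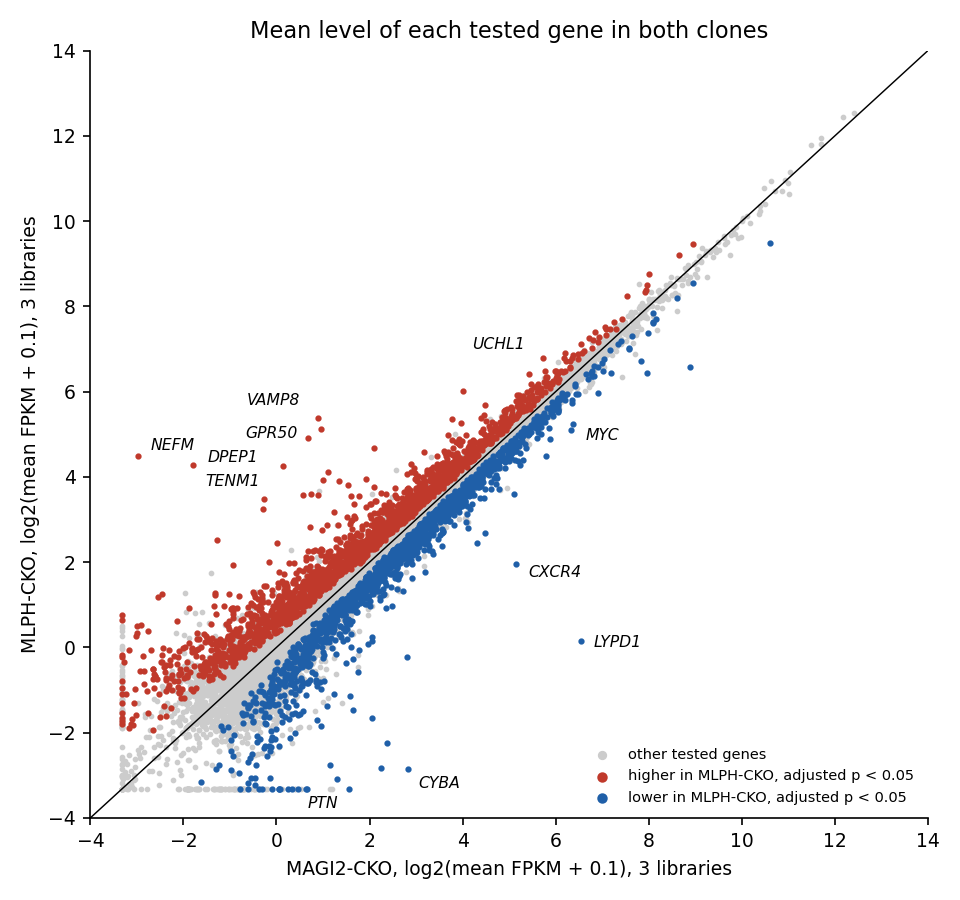
Mean level of each tested gene in MAGI2-CKO (x axis) and MLPH-CKO (y axis), both as log2(mean FPKM + 0.1) over 3 libraries, with the line of equal levels. Red points are the 1907 genes higher and blue points the 1521 genes lower in MLPH-CKO at adjusted p < 0.05, grey points are the other tested genes, and the genes farthest from the line include NEFM, TENM1, LYPD1 and CYBA.

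The targeted genes themselves gave no check of the labels at the RNA level. MLPH (ENSG00000115648) was listed at 0 in all 15 libraries. MAGI2 (ENSG00000187391) was at 0.066, 0.109 and 0.0761 FPKM in MLPH-CKO and at 0.0899, 0.0523 and 0.0618 in MAGI2-CKO, below the filter, with overlapping groups and a Non-target mean of 0.115 ± 0.0108 (SD, n = 3). The study checked the loss of these proteins by flow cytometry. RHBDD2, the target in another clone and a rhomboid-family membrane protein, was at 23.2, 27.1 and 26.3 FPKM in MLPH-CKO and 11.7, 13.8 and 16.0 in MAGI2-CKO (log2 fold change 0.89 ± 0.14 (SE), adjusted p = 0.000523 by limma). The MAGI2-CKO mean of 13.8 lay near that of RHBDD2-CKO itself, 12.4, while Non-target averaged 33.5. RHBDD2 lies on chromosome 7, as MAGI2 does. CARD19 did not pass (0.20, adjusted p = 0.195).

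CXCL12, the chemokine that retains blood stem cells in the bone marrow, was lower in MLPH-CKO than in MAGI2-CKO, although both were above Non-target, where it averaged 0.0135 FPKM. It was at 0.243, 0.210 and 0.242 FPKM in MLPH-CKO and at 0.907, 1.205 and 0.868 in MAGI2-CKO, with no overlap (log2 fold change −1.71 ± 0.16 (SE), adjusted p = 1.14e-05 by limma). The log2 fold change of CXCL12 ranged from −0.69 to −2.07 over the 17 alternative settings, and it passed in all of them. C9orf89-CKO at 0.686 and RHBDD2-CKO at 3.14 lay above MLPH-CKO as well. Its receptor CXCR4 differed more. CXCR4 was at 4.33, 3.17 and 3.83 FPKM in MLPH-CKO and at 34.9, 34.6 and 36.4 in MAGI2-CKO (−3.20 ± 0.14, adjusted p = 1.22e-08 by limma). The means of the other 3 groups lay between 3.01 and 4.26, close to MLPH-CKO, so that MAGI2-CKO carried both the ligand and its receptor at the higher level of the pair.

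The 12 largest rises and 12 largest falls described next are those of protein-coding genes that passed, did not overlap between the clones and had a mean of at least 1 FPKM over their 6 libraries. NEFM, the middle neurofilament subunit, was at 31.8, 17.7 and 17.9 FPKM in MLPH-CKO and at 0.0706, 0 and 0.0117 in MAGI2-CKO. Only 7 fragments in all were counted in MAGI2-CKO, so its log2 fold change of 7.45 ± 0.36 (SE, adjusted p = 2.45e-08 by limma) depends on the pseudocount. Non-target averaged 27.2 FPKM and C9orf89-CKO 19.3. RHBDD2-CKO was low as well, at 1.34, and MAGI2-CKO was the lowest of the 5 groups. TENM1 (ENSG00000009694), a teneurin that links nerve cells at contacts, lies at chrX:124375903-124963817. It was at 19.3, 19.5 and 19.1 FPKM in MLPH-CKO and at 0.148, 0.208 and 0.211 in MAGI2-CKO (6.08 ± 0.15, adjusted p = 6.66e-11 by limma). The other groups averaged 1.76 to 9.54, so that MLPH-CKO lay above all of them and MAGI2-CKO below.

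VAMP8, an R-SNARE of endosome and granule fusion at chr2:85561562-85582031, was at 51.7, 35.8 and 38.0 FPKM in MLPH-CKO and at 2.34, 1.61 and 1.29 in MAGI2-CKO (4.52 ± 0.18, adjusted p = 3.83e-09 by limma). The other 3 groups, with means from 14.02 to 19.13, lay between the clones. GPR50, an orphan receptor related to the melatonin receptors, was at 29.2, 38.7 and 35.7 FPKM against 1.29, 1.93 and 2.26 (4.19 ± 0.19). DPEP1, a kidney membrane dipeptidase that cleaves the glutathione product cysteinylglycine, was at 17.5, 18.9 and 20.4 FPKM against 1.11, 0.810 and 1.07 (4.13 ± 0.15, adjusted p = 2.26e-09 by limma). Non-target had 0.276 FPKM of DPEP1, and MLPH-CKO was the clone with the high level.

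ALDH1A2, the enzyme that makes retinoic acid from retinal, had the smallest standard error of these genes. It was at 18.4, 17.5 and 15.8 FPKM in MLPH-CKO and at 2.12, 2.09 and 1.94 in MAGI2-CKO (3.01 ± 0.07, adjusted p = 4.48e-11 by limma). The other 3 groups averaged 11.4 to 13.0, nearer to MLPH-CKO. The other large rises were BARX2, a homeobox factor (5.66 FPKM on average against 0.309), GFRA3, the receptor subunit for artemin (11.02 against 0.731), EDA2R, the receptor of ectodysplasin A2 (2.17 against 0.0719), BACE2, an aspartic protease (2.28 against 0.082), TCF24, a basic helix-loop-helix factor (9.39 against 0.722), and SHISA2, which holds back WNT and FGF receptors (11.7 against 1.39). The log2 fold changes of these 6 were between 2.99 and 3.82, and none of their libraries overlapped between the clones. Over the alternative settings EDA2R ranged from 1.56 to 4.82, BACE2 from 1.60 to 4.77 and BARX2 from 2.34 to 4.18.

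Among the falls, LYPD1 had the largest on the log2(FPKM + 0.1) scale, while the fold of the mean FPKM was larger for CYBA (184) and DTX3 (133) than for LYPD1 (91.5). LYPD1 is a GPI-anchored protein of the Ly6 family that binds nicotinic receptors. LYPD1 was at 0.704, 1.08 and 1.27 FPKM in MLPH-CKO and at 86.3, 94.7 and 98.1 in MAGI2-CKO (log2 fold change −6.41 ± 0.21 (SE), adjusted p = 1.22e-09 by limma). No other group averaged more than 3.25 FPKM, so the high level was that of MAGI2-CKO. The gene lies at chr2:132644853-132671579 and overlaps an antisense gene, and counting was not stated to use strand. CYBA, the p22phox subunit of the NADPH oxidases, at chr16:88643283-88651152, was at 0.0326, 0.0158 and 0.065 FPKM in MLPH-CKO and at 6.81, 6.39 and 7.71 in MAGI2-CKO (−5.69 ± 0.12, adjusted p = 1.99e-11 by limma). Its log2 fold change ranged from −2.94 to −7.40 over the alternative settings, as it depends on the pseudocount. Here the missing level was that of MLPH-CKO, with 7 fragments in all, while the other 3 groups averaged 13.8 to 22.6.

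PTN, the growth factor pleiotrophin, was listed at 0 in the 3 MLPH-CKO libraries and at 3.58, 2.23 and 2.72 FPKM in MAGI2-CKO, at least 90.0-fold lower against a floor of 3 fragments over the group. RHBDD2-CKO was also listed at 0, and Non-target averaged 0.644. DTX3, a ubiquitin ligase of the Deltex family, was at 0.0134, 0 and 0.040 FPKM in MLPH-CKO, 4 fragments in all, and at 2.33, 2.40 and 2.37 in MAGI2-CKO. It was low in RHBDD2-CKO as well, at 0.00482. The fitted log2 fold changes of PTN and DTX3 depend on the pseudocount in the same way and ranged from −1.93 to −8.13 and from −1.73 to −7.03. GAP43, a growth cone protein, averaged 0.258 against 3.01 FPKM, MAOA, which degrades monoamines, 0.180 against 1.85, and SLITRK3, a synaptic adhesion protein, 0.350 against 2.88. SULT1A1, a phenol sulfotransferase with near-identical paralogs between which reads can be split, averaged 0.575 against 3.25, and BRINP3, a BMP and retinoic acid inducible protein, 0.404 against 1.83. SFRP1, a secreted WNT antagonist, averaged 0.728 against 3.03 and NR4A2, an orphan nuclear receptor, 0.958 against 3.82. These 7 had log2 fold changes from −1.90 to −3.14 and passed in every alternative setting in which they were tested, 16 for MAOA and 17 for the others.

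**Figure D2:**
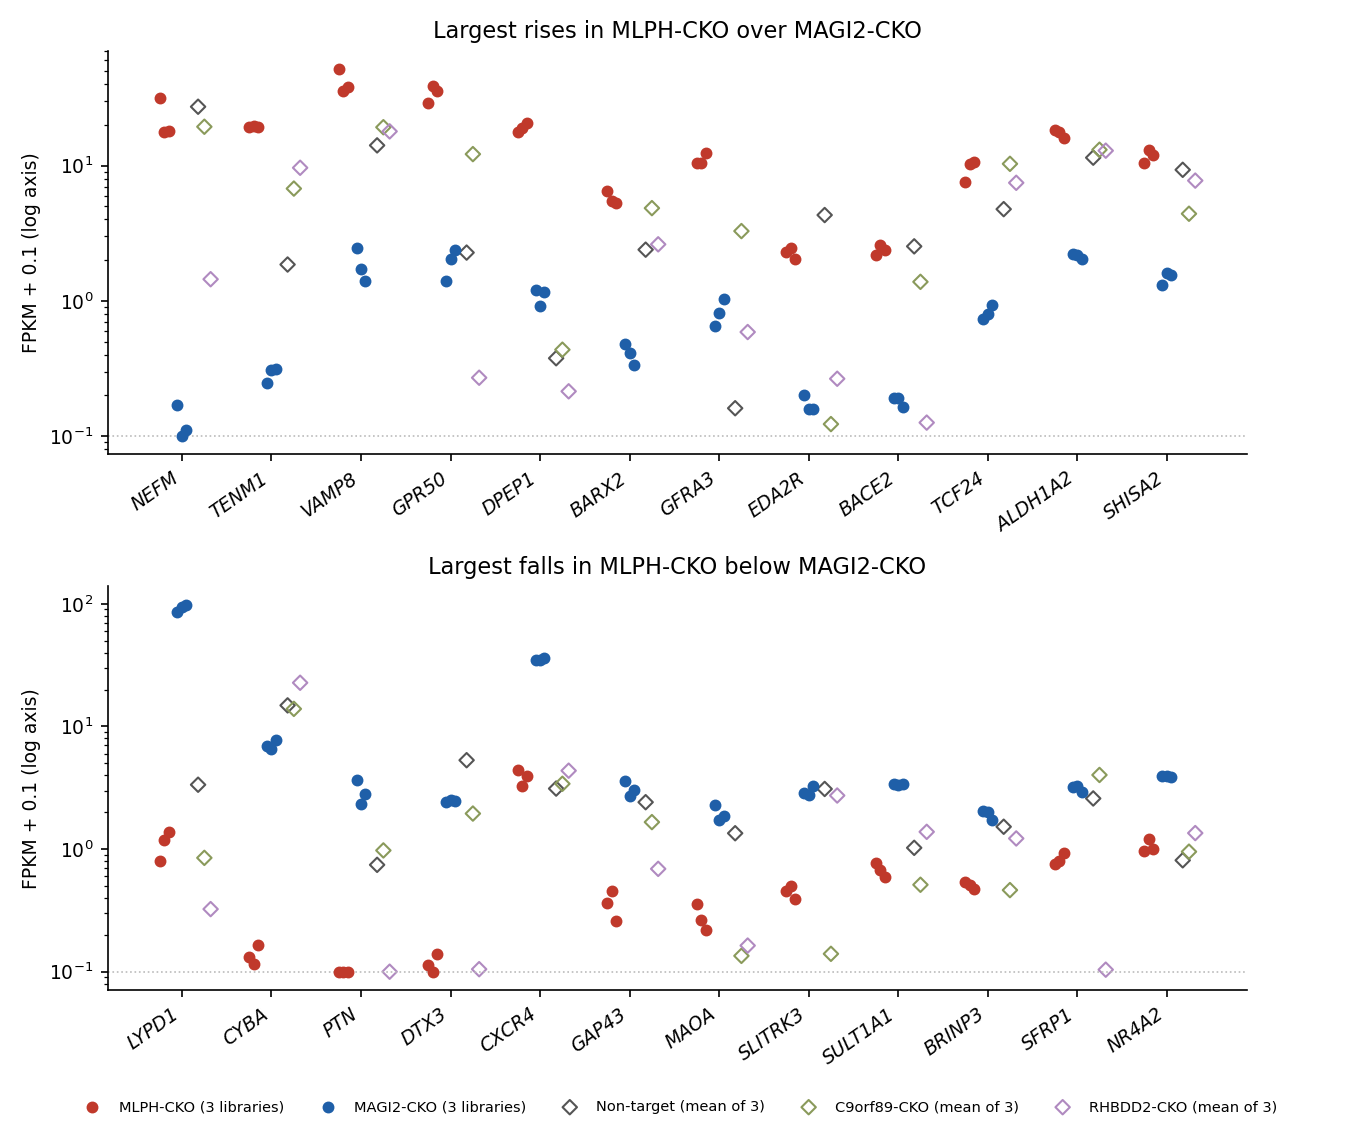
FPKM + 0.1 on a log axis for the 12 protein-coding genes with the largest rise (top) and the 12 with the largest fall (bottom) in MLPH-CKO against MAGI2-CKO, among those that passed, did not overlap and had a mean of at least 1 FPKM over the 6 libraries, with 1 filled point per library and open diamonds for the means of the other 3 groups. The red MLPH-CKO points and the blue MAGI2-CKO points do not overlap for any of these genes, and MLPH-CKO had the highest mean of the 5 groups in 8 of the 12 rises while MAGI2-CKO had the highest in 8 of the 12 falls.

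Some abundant genes differed too. UCHL1, a neuronal deubiquitinase, was at 106, 101 and 127 FPKM in MLPH-CKO and at 47.2, 56.6 and 55.3 in MAGI2-CKO (log2 fold change 1.07 ± 0.11 (SE), adjusted p = 2.34e-05 by limma). MDK, the growth factor midkine of the same family as PTN, averaged 85.6 against 42.8 FPKM (0.99), so that these related factors differed in opposite directions. CHCHD2, a small mitochondrial protein encoded on chromosome 7, averaged 432 against 256.3 FPKM (0.76). LGALS3BP, a secreted galectin ligand, was lower, at 29.1, 37.9 and 36.1 FPKM against 66.1, 87.0 and 89.9 (−1.23 ± 0.15, adjusted p = 9.89e-05 by limma). The transcription factors MYC (37.9 against 83.3, −1.13) and JUN (105 against 227, −1.11) were lower in MLPH-CKO in every library.

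Which clone departed from the rest of the series was counted with the same fit. A gene set a clone apart when it passed in the contrast and lay, past the threshold and in the same direction, on one side of each of the 4 other groups. MAGI2-CKO stood apart in 1093 genes (6.76% of those tested), with 310 higher and 783 lower than all others, and MLPH-CKO in 467 (2.89%), with 127 higher and 340 lower. In both clones more of these genes were low than high. Only 11 genes (0.068%) set both clones apart at once, namely TENM1, VAMP8, ALDH1A2, CYP26A1, ABCB1, EPAS1, FBXO32, FOXB1, TRMT5, TRAPPC13 and SRBD1. The contrast shares its libraries with these counts, which therefore describe it and do not test it.

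The gene lists that follow are described by counts of tested members past the threshold, to be read against the 11.8% of genes higher and 9.4% lower overall and the median of −0.01. In the list of melanophilin and its RAB27 partners, 3 of 20 tested members were higher and 1 lower (median 0.14). The higher ones were RAB38 (2.06), a GTPase of melanosome biogenesis at a mean of 0.767 FPKM against 0.117, and the motors MYO5B (0.88, 1.11 against 0.561 FPKM) and MYO5C (0.42, 5.24 against 3.89). MADD, an exchange factor for RAB3 and RAB27, was lower (−0.31), a call lost with only the 6 libraries of the clones. RAB27A (0.14) and MYO5A (0.14) did not pass, and none of the 6 tested RAB27 effectors did. For MAGI proteins and their partners 3 of 28 were higher (DLL1, PATJ and CTNNB1) and 4 lower (ADGRB1, MPP5, VANGL2 and RAPGEF2), with a median of −0.01. ADGRB1, an adhesion receptor that binds PDZ scaffolds, was at 0.670, 0.779 and 0.578 FPKM in MLPH-CKO and at 2.24, 2.99 and 2.98 in MAGI2-CKO (−1.87 ± 0.17, adjusted p = 8.37e-06 by limma). MAGI1 (−0.06) and MAGI3 (−0.07) did not pass. Of 32 genes of PI3K, AKT and mTOR signalling 1 was higher (SGK3, 0.67) and 3 were lower (PIK3R3 −0.62, RPS6KB2 −0.30 and MTOR −0.23). RPS6KB2 and MTOR each lost the call in 7 of 17 settings, and without replicate 1 of every group the counts were 4 higher and 6 lower.

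Among genes of epithelial junctions, more were higher than lower in MLPH-CKO. Of 30 tested genes of cadherins and junctions 12 were higher and 2 lower (median 0.29), and among the 17 genes of desmosomes and tight junctions 10 were higher and none lower (median 0.50). EPCAM, an epithelial adhesion molecule, was at 2.65, 2.72 and 2.43 FPKM in MLPH-CKO and at 0.675, 0.798 and 0.712 in MAGI2-CKO (1.71 ± 0.17, adjusted p = 1.84e-05 by limma). PKP2 of the desmosome (0.88) and OCLN of the tight junction (0.77) were higher too. The 2 lower members were repressors of epithelial genes. They were among 8 tested transcription factors of the epithelial-mesenchymal transition, of which the other 6 did not pass (median −0.01). SNAI2 was at 13.4, 11.7 and 11.1 FPKM in MLPH-CKO and at 37.2, 33.4 and 32.5 in MAGI2-CKO (−1.50 ± 0.09, adjusted p = 2.26e-07 by limma), and ZEB2 averaged 1.24 against 1.97 (−0.62). SNAI2 averaged 12.8 in Non-target, close to MLPH-CKO. CDH1 (0.46) was higher, and CDH2 (0.13) and VIM (0.24) did not pass.

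Intermediate filaments held 5 higher members of 15 and none lower (median 0.27). KRT8, a simple epithelial keratin, was at 16.3, 14.7 and 14.9 FPKM in MLPH-CKO and at 3.39, 3.48 and 4.28 in MAGI2-CKO (2.02 ± 0.10, adjusted p = 3.63e-08 by limma), and no other group averaged more than 5.09. Its partner KRT18 was at 0.26 and did not pass. The other 4 higher members were filaments of nerve cells, NEFM, INA (0.87), PRPH (0.98) and NEFL (0.49). KRT8 was the 1 higher gene among 5 tested keratins. Of 5 tested protocadherins of the clustered families, adhesion proteins of neurons, PCDHGC3 was lower (−0.52), a call lost in 9 of 17 settings.

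Genes of neurons showed 12 higher and 4 lower of 26 tested (median 0.25). The secreted guidance cues of the class 3 semaphorins stood among the higher ones, SEMA3D at 1.82, 1.86 and 1.68 FPKM against 0.447, 0.537 and 0.381 (1.77 ± 0.14), SEMA3C at 2.36, 2.73 and 2.78 against 0.789, 0.806 and 0.687 (1.66 ± 0.12), and SEMA3A (1.28). All these semaphorin genes lie on chromosome 7, whose genes were higher as a whole, and 4 of the 12 higher neuronal genes lay in stretches described below. ENO2 (0.83) and UCHL1 lie elsewhere. GAP43 (−3.14) was the lowest of the list, and 2 members were lower without MAGI2-CKO replicate 3 or MLPH-CKO replicate 2.

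Of 34 tested HOX genes, which set position along the body axis, 16 were higher and 3 lower, and 15 did not pass (median 0.38). The HOXA cluster on chromosome 7 had 7 of 11 higher and 1 lower (median 0.79), the HOXB cluster on chromosome 17 had 6 of 9 higher (0.41), the HOXC cluster on chromosome 12 had 3 of 8 higher and 1 lower (0.19), and the HOXD cluster on chromosome 2 had 1 of 6 lower (−0.10). HOXB6 was at 25.7, 30.1 and 31.2 FPKM in MLPH-CKO and at 12.4, 13.7 and 14.3 in MAGI2-CKO (1.10 ± 0.11, adjusted p = 1.26e-05 by limma). HOXA13 (1.10) and HOXA3 (1.07) were higher as well. The lower genes were HOXD13 (−0.76), HOXA7 (−0.69) and HOXC9 (−0.41). Outside the stretches described below, 9 HOX genes were higher and 2 lower. Of 40 factors and signals of kidney development 6 were higher and 7 lower, among them GFRA3 (3.76) and TFAP2A (0.80) above and SPRY1 (−0.64) and BMP4 (−0.59) below. The higher members numbered 2 when MAGI2-CKO replicate 1, MAGI2-CKO replicate 2 or MLPH-CKO replicate 2 was left out.

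WNT signalling had 14 higher and 4 lower members of 52 (median 0.16). Among its 14 ligands and secreted antagonists 6 were higher and 1, SFRP1, was lower (median 0.60). WNT5B averaged 1.83 against 0.557 FPKM (1.52), and NOTUM, an enzyme that inactivates WNT proteins, 0.986 against 0.273 (1.55). ROR2, a receptor for WNT5A, was at 3.33, 3.77 and 4.08 FPKM in MLPH-CKO and at 0.257, 0.479 and 0.528 in MAGI2-CKO (2.91 ± 0.20, adjusted p = 6.79e-07 by limma). The other 3 groups averaged 2.27 to 2.75 for ROR2, so MAGI2-CKO was the low one. The classical WNT target AXIN2 (0.02) did not pass.

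Notch signalling had 6 higher and 3 lower of 24 (median −0.01). DLL1, a ligand, averaged 7.36 against 3.69 FPKM (0.98), DLK2, a ligand-like inhibitor, was at 7.27, 9.14 and 10.4 against 1.80, 2.77 and 2.25 (1.94 ± 0.17), and the repressors HES6 (1.30) and HES7 (1.38) were higher. HES1 (−0.51) and HEY1 (−0.43), direct targets of Notch, were lower. BMP, TGF-beta and activin genes were 9 higher and 9 lower of 52 (median −0.05). With only the 6 libraries of the clones, 5 were higher. BMP2 averaged 0.896 against 0.148 FPKM (2.01) and INHBB 1.18 against 0.572 (0.96, a call lost with only the 6 libraries of the clones), while the antagonist CHRDL1 averaged 0.290 against 1.24 (−1.77), TGFB3 0.743 against 1.37 (−0.82) and BMP4 5.02 against 7.55 (−0.59). Ligands of one family therefore differed in both directions.

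Chemokines, cytokines and their receptors had 12 higher and 3 lower of 43 (median 0.11). The lower ones were CXCR4, CXCL12 and IL17RB (−0.41). IL15RA, the receptor that presents interleukin 15, was at 1.52, 1.59 and 1.73 FPKM in MLPH-CKO and at 0.397, 0.440 and 0.423 in MAGI2-CKO (1.72 ± 0.13, adjusted p = 1.77e-06 by limma). KITLG, the stem cell factor (0.62, 5.57 against 3.61 FPKM), and its receptor KIT (0.74, 4.65 against 2.73) were both higher, and these 2 were chosen after their values were seen. CCR10 (1.00) lost its call in 6 of the 16 settings in which it was tested. The direction in CXCL12 and CXCR4 was thus that of 3 members out of the 15 that passed.

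Integrin alpha subunits, the receptors for matrix, were higher in 5 of 12 and lower in none (median 0.39), and of 11 activators and links to actin 4 were lower and none higher. ITGA4 was at 3.11, 3.22 and 3.93 FPKM against 1.34, 1.53 and 1.67 (1.12 ± 0.11, adjusted p = 2.08e-05 by limma), and ITGA6 (0.90), ITGA8 (0.74) and ITGA1 (0.58) were higher. The integrin list as a whole had 6 higher and 4 lower of 27 (median 0.11). Extracellular matrix genes were 15 higher and 13 lower of 71 (median 0.01). The laminins and nidogens had 5 of 10 higher and 1 lower, with LAMA4 at 2.05, 2.71 and 2.32 FPKM against 0.592, 0.717 and 0.752 (1.64 ± 0.11) and LAMA3 at 2.43 against 0.834 on average (1.44). Among other matrix proteins 3 of 20 were higher and 6 lower, with EDIL3, an integrin ligand, at 0.166 against 0.896 FPKM (−1.93). MMP15, a membrane-bound matrix protease, averaged 7.37 against 2.90 (1.34). With only the 6 libraries of the clones, or without MAGI2-CKO replicate 2, 8 matrix genes were lower.

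Genes of death receptors and apoptosis were 8 higher and 3 lower of 37 (median 0.11). EDA2R (3.73) and CASP10, an initiator caspase (1.202 against 0.474 FPKM, 1.19), were higher. BCL2L11, the pro-apoptotic BH3 protein BIM, was at 3.13, 3.33 and 3.51 FPKM in MLPH-CKO and at 9.19, 9.26 and 8.87 in MAGI2-CKO (−1.43 ± 0.08, adjusted p = 9.54e-08 by limma), whereas HRK, another BH3 protein, was higher (0.77). The other groups averaged 3.87 to 4.61 for BCL2L11, which puts MAGI2-CKO above them. The lower members of the list numbered 1 without MAGI2-CKO replicate 3 or MLPH-CKO replicate 3. Of 32 targets of p53, a protein that large T antigen binds, 7 were higher and 6 lower (median 0.08). CDKN1A, the cyclin kinase inhibitor p21, averaged 13.7 against 8.35 FPKM (0.71), FBXW7 0.993 against 1.98 (−0.94) and PLK3 0.940 against 1.53 (−0.65), and MDM2 was at 0.00 and did not pass. The higher p53 targets numbered 11 without replicate 1 of every group and 3 without MAGI2-CKO replicate 3, and 4 without MAGI2-CKO replicate 2, MLPH-CKO replicate 1 or MLPH-CKO replicate 3.

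Of 43 interferon and MHC class I genes 10 were higher and 4 lower (median 0.15). The 4 lower genes were IFITM1 (6.82 against 17.4 FPKM, −1.41), IFITM3 (2.49 against 5.96, −1.27), IFITM2 (−0.80) and LGALS3BP, of which the first 3 restrict virus entry and share near-identical sequence. OAS3, a sensor of double-stranded RNA, was at 1.70, 1.90 and 1.66 FPKM against 0.325, 0.419 and 0.484 (1.87 ± 0.16, adjusted p = 4.16e-06 by limma). Among 14 genes of antigen presentation 5 were higher and none lower. The interferon target ISG15 (0.14) did not pass.

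Cell cycle genes were 8 higher and 9 lower of 69 (median 0.01), with 14 lower without replicate 1 of every group. TTK, a spindle checkpoint kinase, was at 18.5, 17.3 and 17.5 FPKM against 10.1, 10.1 and 9.48 (0.84 ± 0.07), CDK6 averaged 9.39 against 4.89 (0.93) and lies on chromosome 7, and the inhibitor CDKN2B averaged 4.80 against 2.47 (0.93). The proliferation markers MKI67 (−0.28) and PCNA (0.04) did not pass. Replication-dependent histones, whose messages lack a poly(A) tail in the main and so depend on the library kit, were higher in none and lower in 10 of 32 (median −0.36). HIST3H2A was at 28.1, 29.1 and 31.0 FPKM in MLPH-CKO and at 53.9, 59.8 and 63.7 in MAGI2-CKO (−1.003 ± 0.144, adjusted p = 0.000286 by limma). HIST2H2BE was at 1.02, 0.847 and 0.845 against 3.17, 2.44 and 3.13 (−1.58 ± 0.21). None of the tested histone genes lies in the stretches described below. Histone genes are near-identical copies, between which reads can be split.

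Hosts of small nucleolar RNAs had 8 of 24 lower and 1 higher (median −0.31). SNHG1 was at 18.6, 21.2 and 22.8 FPKM in MLPH-CKO and at 42.3, 39.9 and 34.9 in MAGI2-CKO (−0.90 ± 0.13, adjusted p = 0.000236 by limma), GAS5 at 28.8, 30.6 and 30.8 against 52.4, 48.0 and 44.3 (−0.68 ± 0.13), and SNHG17 was lower as well (−0.76). SNHG26 was the higher one (1.34) and lies on chromosome 7. Without replicate 1 of every group 13 were lower, and without MLPH-CKO replicate 3 there were 5. Cytosolic ribosomal proteins depended most on replicate 1. Of 85 tested, 3 were lower, among them RPL34 and RPS3A, which lost their calls in 5 and 8 of 17 settings, and 1, RPL22L1, was higher (median −0.10), but 32 were lower and 3 higher without replicate 1 of every group. The median deviation of these genes from the mean of all libraries was 0.23, −0.06 and −0.16 in MLPH-CKO replicates 1, 2 and 3 and 0.18, 0.05 and 0.12 in MAGI2-CKO, so that MLPH-CKO replicate 1 lay on the other side of zero from the other 2. With MLPH-CKO replicate 1 alone left out 9 were lower, and with any other single library of the clones left out 1 or 2 were.

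Subunits of respiratory complex I had 4 of 36 lower and 2 higher (median 0.00), and 11 were lower without replicate 1 of every group. NDUFC1 (−0.37), NDUFA10 (−0.30) and NDUFV1 (−0.29) were among the lower ones. None of the 13 protein-coding genes of the mitochondrial genome passed with limma (median 0.12), 0 had an unadjusted p below 0.05 and 0 passed with voom weights, and 4 were higher and 1 lower without replicate 1 of every group. In the MICOS and cristae complex, 1 of 12 was higher (SAMM50, 0.22) and 1 lower (DNAJC11, −0.31), both lost in at least 7 of 17 settings.

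Glutathione enzymes were 4 higher and 8 lower of 26 (median −0.13). Besides DPEP1 above, the cystine transporter SLC7A11 was at 3.68, 3.68 and 4.03 FPKM in MLPH-CKO and at 8.17, 7.61 and 6.54 in MAGI2-CKO (−0.95 ± 0.10, adjusted p = 3.11e-05 by limma), and MGST2, a microsomal glutathione transferase, averaged 4.24 against 6.79 (−0.67). CHAC1, which degrades glutathione, averaged 10.6 against 16.6 (−0.63). The higher members numbered 2 without MAGI2-CKO replicate 2 or replicate 3 or MLPH-CKO replicate 1, and the lower members 5 without MLPH-CKO replicate 3. Of 30 genes that carry, activate or degrade nucleosides and cytarabine, 5 were higher and 7 lower (median 0.00). NT5C3A, a nucleotidase encoded on chromosome 7, averaged 7.24 against 4.02 FPKM (0.83), the efflux pump ABCC4 5.87 against 3.85 (0.60) and ABCG2 0.983 against 0.629 (0.57). NT5C1A (−0.52) was lower. ABCG2 lost its call in 6 of 16 settings and NT5C1A in 7 of 17. Without MAGI2-CKO replicate 2 the counts were 3 higher and 2 lower, and without MLPH-CKO replicate 3 there were 4 lower.

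Cholesterol genes were 8 higher and 3 lower of 37 (median 0.13). SC5D was at 11, 10.1 and 9.39 FPKM against 4.31, 3.96 and 3.73 (1.32 ± 0.09, adjusted p = 6.14e-07 by limma) and lies in a stretch of chromosome 11 described below. ACAT2 averaged 15.84 against 10.99 (0.52) and the exporter ABCG1 1.32 against 0.597 (1.03). The lower cholesterol genes numbered 0 without MAGI2-CKO replicate 3 and 1 or 2 without any other single library of the clones. ER stress and heat shock genes were 8 higher and 5 lower of 48 (median 0.07), and 13 and 8 without replicate 1 of every group, while 3 were lower when any single library of the clones other than MLPH-CKO replicate 1 was left out. DDIT4, an inhibitor of mTOR induced by stress, was at 21.4, 22.5 and 23.5 FPKM against 50, 55.9 and 60.6 (−1.30 ± 0.08, adjusted p = 2.78e-07 by limma), while HSPA2 (4.70 against 1.79, 1.35) and DNAJB9 (4.65 against 2.77, 0.73) were higher. Hypoxia and glycolysis genes were 6 higher and 1 lower of 41 (median 0.03), with 5 lower without replicate 1 of every group. EPAS1, the hypoxia factor HIF-2 alpha, was at 8.06, 8.44 and 8.19 FPKM in MLPH-CKO and at 2.50, 2.87 and 2.90 in MAGI2-CKO (1.55 ± 0.08, adjusted p = 5.09e-08 by limma). The classical target VEGFA (−0.09) did not pass, and the lower member was lost without MAGI2-CKO replicate 2 or replicate 3 or MLPH-CKO replicate 1 or replicate 3.

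Imprinted genes were 7 higher and 3 lower of 22 (median −0.11), with PHLDA2 at 7.89 against 3.00 FPKM (1.38), SGCE (0.97) and KLF14 (0.88) above and OSBPL5 (1.06 against 1.97, −0.83) below. SGCE and KLF14 lie on chromosome 7, and KLF14 lost its call in 4 of 16 settings. Cancer-testis antigens were 4 higher and 3 lower of 20 (median 0.00), and 1 was lower without MAGI2-CKO replicate 3. MAGEB2 averaged 1.87 against 5.49 FPKM (−1.50) and SAGE1 8.12 against 4.02 (1.00), and 2 were higher without replicate 1 of every group, without MAGI2-CKO replicate 2 or without MLPH-CKO replicate 3. In the X-linked BEX and TCEAL cluster ARMCX5 was lower, at 3.25, 2.78 and 2.75 FPKM against 6.41, 5.95 and 5.78 (−1.02 ± 0.09), alone among 17 (median −0.18), while 6 were lower without replicate 1 of every group and 3 without MLPH-CKO replicate 1 alone. Of 16 enzymes and readers of DNA methylation TET2 (0.878 against 1.60 FPKM, −0.80), UHRF1 (−0.40) and DNMT3A (−0.35) were lower and none was higher (median 0.01), while 1 was higher without replicate 1 of every group. DNMT3A lost its call in 7 of 17 settings, among them each single library of the clones left out other than MLPH-CKO replicate 1.

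The differences were not spread evenly over the chromosomes. On chromosome 7, 359 of 803 tested genes were higher in MLPH-CKO (44.7%) and 33 lower, with a median log2 fold change of 0.39. Chromosome 4 had 191 of 582 lower and 48 higher (median −0.23), chromosome 14 had 177 of 543 lower and 37 higher (−0.27), and chromosome 11 had 165 of 837 lower and 97 higher (−0.14). On the other chromosomes the share of higher genes ranged from 5.43% to 16.9% and that of lower genes from 3.43% to 12.2%.

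**Figure D3:**
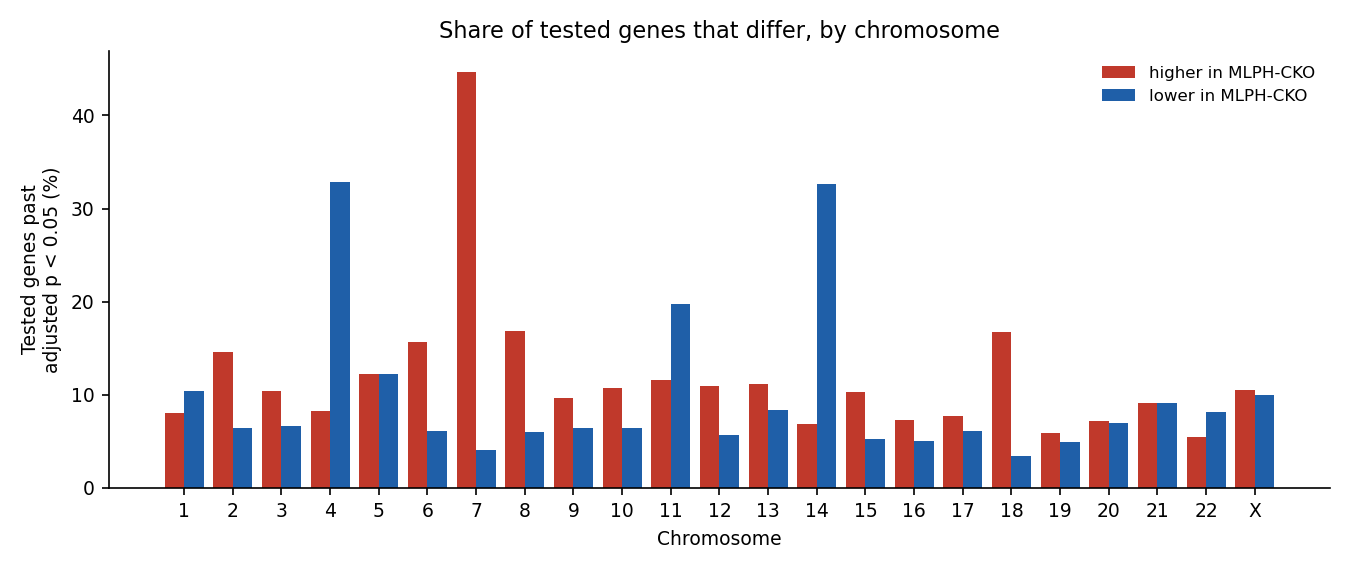
Percent of the tested genes of each chromosome that were higher (red) or lower (blue) in MLPH-CKO at adjusted p < 0.05. Chromosome 7 stands out with 44.7% higher, and chromosomes 4, 14 and 11 with 32.8%, 32.6% and 19.7% lower.

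Chromosome 7 carries MAGI2 and chromosome 2 carries MLPH. Of the 370 tested genes before MAGI2 on chromosome 7, 226 were higher and 5 lower (median 0.55), and of the 432 after it 132 were higher and 28 lower (0.17). Within 5 Mb of MAGI2, 38 of 63 were higher and none lower (0.54). Around MLPH no such imbalance was seen, with 3 of 61 genes within 5 Mb higher and 3 lower (−0.01) and 2 of the 43 genes after it higher and 2 lower. These are counts of neighbouring genes, which are not replicates, and the number of DNA copies was not analysed here.

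Runs of windows of 50 neighbouring tested genes with a median of at least 0.25 in size, 25 windows or more in a row, gave 7 stretches. They were chosen by the fold changes themselves and are a description. The longest by genes was chr7:135853-128092609, with 352 of 604 genes higher and 6 lower (median 0.52). Over this stretch the median deviation from the mean of all libraries was −0.43, −0.45 and −0.45 in the MAGI2-CKO libraries and 0.10, 0.09 and 0.08 in the MLPH-CKO libraries, and it lay between 0.08 and 0.15 in the other 9. The low level was thus that of MAGI2-CKO. On chr14:45084099-105979146 MAGI2-CKO was the high clone, at 0.29, 0.27 and 0.28, and 167 of 390 genes were lower in MLPH-CKO. On chr11:94415578-134378341 (77 of 195 higher) and chr6:149594625-170584692 (33 of 85 higher) MAGI2-CKO was low. Over the former MLPH-CKO, at −0.09, −0.07 and −0.11, also lay below the 9 libraries of the other groups, at 0.08 to 0.23, and above MAGI2-CKO, at −0.31, −0.42 and −0.45.

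In the remaining 3 stretches MLPH-CKO was the low clone. On chr4:55412636-185020804 its libraries lay at −0.34, −0.37 and −0.42 while MAGI2-CKO lay at 0.08, −0.02 and −0.05, and 175 of 375 genes were lower. On chr5:157785743-181324685, with 54 of 136 lower, MLPH-CKO lay at −0.24, −0.30 and −0.28. On chr11:66244840-73876988, with 25 of 99 lower, it lay at −0.19, −0.15 and −0.10.

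Inside the 7 stretches 50.1% of 1885 genes passed, and outside them 17.4% of 14290 did, with 1405 higher and 1078 lower. The stretches held 26.3% of the higher genes, 29.1% of the lower genes and 18.2% of those that differed 2-fold. Most of the contrast therefore lay elsewhere. Of the higher members of the lists above, 7 of 16 HOX genes lay inside, 5 of 8 genes of ER stress and heat shock, 4 of 12 neuronal genes, 3 of 7 imprinted genes and 3 of 8 cell cycle genes. Of the lower members, 4 of 7 kidney factors lay inside, 4 of 8 glutathione genes, 4 of 9 cell cycle genes, 3 of 9 BMP, TGF-beta and activin genes and 2 of 4 in both the MAGI and the complex I list. FBXW7, TET2, SPRY1, SLC7A11 and MGST2 lie in the stretch of chromosome 4 and MPP5, BMP4 and TGFB3 in that of chromosome 14. Other lists with at least 4 calls in a direction had at most 2 of 5 of them inside.

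Markers of the cells were checked last. All 10 marker genes of HEK293T passed the filter, and their summed level was 216, 226 and 221 FPKM in MLPH-CKO and 142, 159 and 162 in MAGI2-CKO, with VIM the most abundant (82.2 against 69.2 on average) and none listed at 0 in all 15 libraries. Of these 5 were higher (KRT8, NEFM, INA, NEFL and LHX1) and 1 lower, a call lost without MAGI2-CKO replicate 2. None of 12 haematopoietic markers passed the filter. Their summed level was 0.179 to 0.411 FPKM in MLPH-CKO and 0.408 to 0.522 in MAGI2-CKO, SPI1 was the most abundant at 0.0788 and 0.273, and MPO was listed at 0. Of 12 fibroblast markers 4 were tested and 1, COL3A1, was lower (−0.86), a call lost without replicate 1 of every group. Their sums overlapped, at 4.93 to 7.82 against 5.42 to 6.83 FPKM, with COL1A1 at 4.48 and 4.74 and FAP listed at 0. Of 9 endothelial markers 2 were tested and EGFL7 was lower (8.44 against 11.8 FPKM, −0.47), with sums of 8.404 to 10.43 against 9.90 to 13.4 and ERG listed at 0.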

How the data were processed

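RNA was extracted with DNase I from 3 wells per group and sequenced by a company, Novogene, on an Illumina NovaSeq instrument from NEBNext Ultra libraries. The authors deposited 1 table per library with 1 FPKM value per gene, a unit read from the values because the tables do not name it. The submitters' processing notes name HISAT2 2.0.5, featureCounts 1.5.0-p3 and DESeq2, and the genome build is not given in the sources used here. Each FPKM value multiplied by the GENCODE v29 merged exon length was a whole multiple (within 0.05) of 1 step per library, which gave the fragments behind it. The floor of 3 fragments covers counting error only. The ± values are limma standard errors or, where marked, standard deviations between wells.

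The contrast MLPH-CKO minus MAGI2-CKO was fitted with limma 3.58.1 (R 4.3.3, eBayes with a trend) on log2(FPKM + 0.1) over 15 libraries and 5 groups, with a threshold of 0.05 for the Benjamini-Hochberg adjusted p. Fold changes are on this scale and understate those of low genes. The script was tested on simulated data. Other work used Python 3.11.15, numpy 2.4.6, pandas 2.3.3 and matplotlib 3.10.9.

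The comparison, its lists and the genes named were chosen with earlier results of these data known. Named were the targets and CXCL12, among protein-coding genes past the threshold the 12 largest rises and falls with no overlap that averaged 1 FPKM or more in the 6 libraries and the 3 largest of each at 50 FPKM or more, and up to 4 members of each list with at least 0.5 FPKM and no overlap. Members named to complete a count, or as known partners or targets that did not pass, were chosen after their values were seen. The alternatives were other pseudocounts (1 and 0.01) and filters, quantile normalization, median centring, no trend, the replicate number as a block, 6 libraries only, each library left out, and, chosen after seeing the data, voom and no replicate 1 in any group. Some members of the lists are counted but not reported by name here.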

Additional observations from a re-analysis of the deposited data

How the results depend on the processing

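All 3428 genes past the threshold kept their sign in every setting, except that 444 of them were not tested at a mean of at least 1 FPKM. The number past the threshold ranged from 2478 (without MAGI2-CKO replicate 2) to 4762, and of 142 named genes past the threshold 125 stayed past it in all 17 settings where tested. The 2-fold genes numbered 144 with a pseudocount of 1 and 286 at a mean of at least 1 FPKM. The median of chromosome 7 was 0.28 with a pseudocount of 1, 0.15 with no filter, 0.44 at a mean of at least 1 FPKM, 0.37 with median centring and 0.39 to 0.41 with 1 library left out. That of chromosome 4 was −0.143 and −0.0598, and that of chromosome 14 −0.19 and −0.14, with a pseudocount of 1 and with no filter. No setting moved the median of all genes beyond −0.03.

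With the replicate number as a block 4762 genes passed and MLPH-CKO stood apart in 756 genes, and the higher kidney factors numbered 12. The labels do not say that equal numbers pair these libraries, so the block is only an alternative. The deviations of same-numbered MLPH-CKO and MAGI2-CKO libraries correlated at 0.23, 0.09 and 0.10. Those of different-numbered ones correlated at −0.16 to 0.08 (median −0.09), and an effect shared by equal numbers was not tested. No apart counts could be made from only the 6 libraries. At this depth the lists' short counts moved most, and the cause was not tested.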

Other observations

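Genes around retinoic acid were listed after ALDH1A2 and CYP26A1 had been seen among the genes that set both clones apart. Of 16 tested, 7 were higher in MLPH-CKO and 2 lower (median log2 fold change 0.48), beside 11.8% higher and 9.4% lower over all tested genes. The 7 include ALDH1A2 and CYP26A1, which prompted the list, so the count is only a description. CYP26A1, which degrades retinoic acid and is induced by it, was at 3.54, 3.77 and 4.26 FPKM in MLPH-CKO and at 1.28, 1.04 and 1.28 in MAGI2-CKO (1.61 ± 0.12 (SE), adjusted p = 1.97e-06 by limma). RARB, a receptor gene with the same property, was at 2.70, 2.77 and 3.11 FPKM against 0.961, 0.976 and 1.03 (1.44 ± 0.08, adjusted p = 1.92e-07 by limma). DHRS3, which reduces retinal, was higher too (1.496), with RBP7 (2.22) and CRABP2 (0.66), and RXRG (−2.04) and RXRA (−0.28) were lower. MAGI2-CKO had the lowest mean of the 5 groups for ALDH1A2, CYP26A1 and RARB, but the other groups did not keep one order. RARB was highest in Non-target (4.39 FPKM), and RHBDD2-CKO had ALDH1A2 at 12.8 and CYP26A1 at 1.665. Whether these differences are linked was not tested.

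Immediate early genes, listed after JUN and NR4A2 had been seen, were lower in 8 and higher in 1 of 23 (median −0.12). The 8 include JUN, NR4A2 and MYC, already named above as lower, so this count too is only a description. FOSB was at 0.917, 2.16 and 2.36 FPKM in MLPH-CKO and at 3.88, 6.11 and 4.97 in MAGI2-CKO (−1.49 ± 0.34, adjusted p = 0.00668 by limma). FOS (−0.69), DUSP1 (−0.68), CYR61 (−0.88) and IER2 (−0.34) were lower, IER5 (0.50) was higher, and EGR1 (−0.43, adjusted p = 0.258 by limma) did not pass.

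Some single genes were picked by hand after their values were seen. They were not taken from a ranking by size, so a trait that several of them share is not a result. ABCB1, the drug efflux pump P-glycoprotein, was at 5.39, 5.32 and 5.25 FPKM in MLPH-CKO and at 0.994, 0.915 and 0.821 in MAGI2-CKO (2.43 ± 0.11, adjusted p = 2.01e-08 by limma), and it lies on chromosome 7. CD24, an anchored surface protein, averaged 1.80 against 0.172 FPKM (2.81), INSM1, a neuroendocrine zinc finger factor, 13.5 against 4.18 (1.68) and TGFA, an EGF receptor ligand, 0.872 against 0.211 (1.65). Receptor genes among those picked were EDNRA at 0.320 against 1.18 FPKM (−1.66), EDNRB at 0.123 against 0.410 (−1.21), NPY1R at 0.0862 against 0.812 (−2.29) and AGTR1 at 0.192 against 0.503 (−1.06). IGFBP5 averaged 5.36 against 19.7 (−1.86) and HLA-DRA 0.480 against 1.93 (−1.84). Among noncoding genes KC877982.1, next to GPR50, averaged 29.84 against 1.495 FPKM (4.24), HOTAIRM1 of the HOXA cluster 12.1 against 4.68 (1.36), LINC01694 0.762 against 6.90 (−3.03), and the neighbouring pseudogenes TSSC2 (0.0396 against 4.63, −5.11) and FAM86GP (0.112 against 5.05, −4.82) on chromosome 11 were low in every group but MAGI2-CKO, with means of at most 0.309 and 0.831 in the other 3 groups.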
